A study of Mus musculus with 2 samples.

Results

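The 45 genes described here build and run the primary cilium, and they were chosen by name from what their proteins are known to do. No measured value enters the rule, but earlier results of these data were known when the genes were chosen. Each symbol matched a single gene ID of the GENCODE M21 annotation, so the set is 45 of 55536 gene IDs measured. By role they are 11 subunits of the anterograde transport trains (intraflagellar transport complex B, IFT-B), 6 genes of the retrograde trains (complex A, IFT-A, and the dynein-2 motor), 6 subunits of the BBSome, 3 genes that assemble or recruit the BBSome, 13 transition zone genes, 2 basal body genes and 4 genes of ciliary membrane traffic. The samples were 2 libraries of polyadenylated RNA from the neural tube of healthy mouse embryos of strain B6NCrl, aged 12.5 days, with both sexes mixed. Replicate 2 came from a pool of 88 embryos and replicate 1 from a pool of 120 embryos, and each library was made from 10 ng of RNA. There was 1 group with no treatment and no mutant allele, so no condition was compared with another.

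A primary cilium is a non-motile, microtubule-based antenna that grows from the mother centriole of most cells. Proteins reach its tip on IFT-B trains pulled by kinesin-2 and return on IFT-A trains pulled by dynein-2; the BBSome rides these trains and carries membrane receptors out, and the transition zone is the gate at the base. In the neural tube, progenitors extend such cilia into the central canal, and the Sonic hedgehog signal that patterns ventral cell types is read through them.

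Replicate 2 held 35461403 estimated counts and replicate 1 held 33529531. The 45 members took 44681 of them in replicate 2 and 41633 in replicate 1, which was 0.130% and 0.128% of the counts on genes. Levels are given in TPM, a measure of abundance per unit of transcript length in which each library has the same total, as the mean ± SD over the 2 libraries. At a transcript length of 1 kb, 1 read stood for 0.0462 TPM (replicate 2) or 0.0477 TPM (replicate 1), and no member rested on fewer than 179 counts in a library. Each of 6 neural progenitor markers and each of 6 neuron markers reached 10 TPM in replicate 2 and in replicate 1, against 41.7% of all protein-coding genes. Markers of non-neural cells did so too: 5 of 5 for mesenchyme, 4 of 4 for endothelium, 4 of 4 for macrophages and 4 of 5 for red blood cells. Markers of sensory ganglia were higher in replicate 2 in 5 of 5 genes, summing to 281 TPM in replicate 2 and 200 TPM in replicate 1, with no marker at 0. Skeletal muscle markers were lower in replicate 2 in 5 of 5 genes, summing to 167 TPM in replicate 2 and 236 TPM in replicate 1, with no marker at 0. In such bulk tissue, fewer cells of a type and less RNA per cell cannot be told apart.

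Each of the 45 members reached 1 TPM in replicate 2 and in replicate 1, against 60.9% of all protein-coding genes. At 10 TPM or more there were 34 of 45, against 41.7% of all protein-coding genes. The median member stood at 16.1 ± 0.14 TPM (SD, n = 2), below the median of 21.7 TPM over the 13414 protein-coding genes expressed in both libraries, and 15 of the 45 members lay above that median. The members thus ranked as detected throughout but moderate in level, with a 49.9-fold distance between the highest, Ift46, and the lowest, Gpr161.

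**Figure D1:**
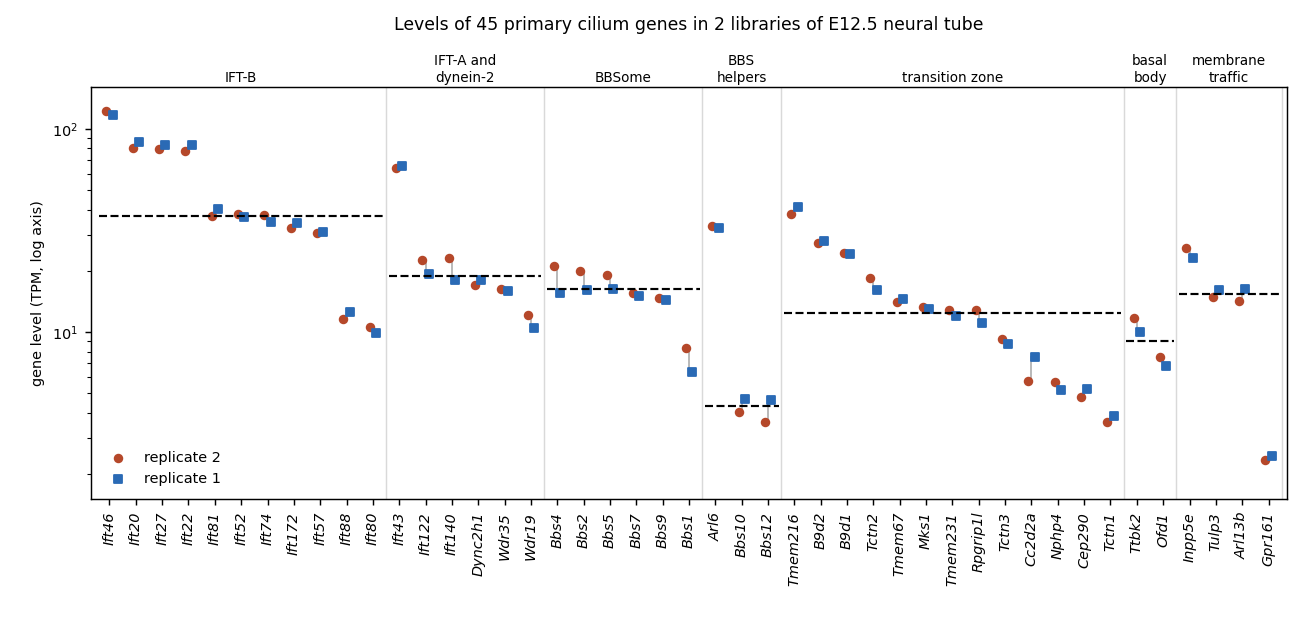
TPM (log axis) of each of the 45 members in replicate 2 (circles) and replicate 1 (squares), grouped by role and ordered by mean level within a group; dashed lines are the mean of the 2 libraries' group medians. The IFT-B median of 37.2 TPM is the highest of the 7 groups, and both chaperonin-like BBS genes lie below 5 TPM.

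The sequences shown first are those upstream of, or at, the start of the genes. RFX transcription factors bind a motif called the X-box, which in many animals lies near the start of cilium genes. RefSeq promoters on build GRCm38.p6, which is the assembly mm10 of the deposited tables, run from 250 bases before to 50 bases after a gene's start and were given for 41 of the 45 members, in 49 promoters; Ift80, Ift81, Ift122 and Tmem67 had none in the table used. The X-box searched was GT, 2 free bases, CC, 3 free bases, G, 1 free base and AAC, 14 bases in all, and its core was the 6 bases GTTGCC. Both were searched on either strand, and a core may lie inside an X-box. An X-box was present in 12 of 49 member promoters, each of a different gene, against 2.17% of 32851 promoters in the table and 3.15% of 10414 expressed protein-coding genes with a promoter there. The core was present in 19 of 49, against 12.5% of all promoters and 14.8% of those genes; 9 genes held both. Of the 12 genes, 7 belonged to the transition zone (B9d2, Mks1, Nphp4, Tctn1, Tctn2, Tmem216 and Tmem231, out of 12 with a promoter), 3 to the BBSome (Bbs1, Bbs4 and Bbs7, out of 6) and 2 to the trains (Ift22 and Ift57, out of 14). The other groups had none. The 7 sites whose X-box begins with the core are shown because the core lies inside the X-box in each, every one on the gene's own strand with up to 8 bases on either side and the 14 bases of the X-box in capitals.
B9d2: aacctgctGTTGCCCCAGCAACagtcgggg
Bbs1: ctgagctgGTTGCCAAGGCGACgcctggga
Bbs7: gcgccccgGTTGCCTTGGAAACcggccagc
Ift57: cgggtctgGTTGCCGTGGTGACcggctgcc
Mks1: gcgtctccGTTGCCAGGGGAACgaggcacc
Tctn1: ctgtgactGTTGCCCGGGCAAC
Tmem231: cgccgtcgGTTGCCGTGGAGACtcggcgct
The windows lie at chr7:25680788-25680817 (plus strand) for B9d2, chr19:4906605-4906634 (minus) for Bbs1, chr3:36613489-36613518 (minus) for Bbs7, chr16:49699199-49699228 (plus) for Ift57, chr11:87853183-87853212 (plus) for Mks1, chr5:122264411-122264432 (minus, to the end of the promoter given) for Tctn1 and chr8:111933781-111933810 (minus) for Tmem231. Their X-boxes began 121 bases before the RefSeq start in Bbs7, 87 before it in Ift57 and 24 before it in Mks1, and 1 base after it in Bbs1, 11 after it in Tmem231, 16 after it in B9d2 and 36 after it in Tctn1. In Bbs1, Ift57 and Tmem231 the X-box matches only on the opposite strand, so its AAC end comes first here, as GTT. These are letter matches, and binding was not measured.

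Of the 7 RFX genes listed here, 6 were themselves expressed at 1 TPM or more in each library, against 60.9% of all protein-coding genes. Rfx4, known for its role in the developing central nervous system, had 36.3 TPM in replicate 2 and 31.8 TPM in replicate 1. Rfx3, known as a regulator of cilium genes in the mouse, had 21.10 TPM in replicate 2 and 21.03 TPM in replicate 1, and Rfx7 averaged 15.02 ± 1.94 TPM. Rfx1, Rfx5 and Rfx2 averaged between 4.30 and 7.22 TPM. Rfx6, a factor of the endocrine pancreas, had 12 counts (0.17 TPM) in replicate 2 and 3 counts (0.06 TPM) in replicate 1.

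IFT-B was the most abundant group, with a median of 37.7 TPM in replicate 2 and 36.7 TPM in replicate 1 over its 11 members (37.2 ± 0.74). Ift46 (ENSMUSG00000002031.12, chromosome 9), a core subunit, was the highest of all 45 at 122 TPM in replicate 2 and 118 TPM in replicate 1. Ift20, which also sits at the Golgi, had 80.7 TPM in replicate 2 and 85.7 TPM in replicate 1. The Rab-like GTPases Ift27 and Ift22 stood beside it: Ift27 had 79.8 TPM in replicate 2 and 82.9 TPM in replicate 1. Ift22 had 77.5 TPM in replicate 2 and 83.2 TPM in replicate 1. The values of Ift20, Ift27 and Ift22 overlapped, so their order is within the spread of the libraries, whereas Ift46 lay above all 3 in both libraries.

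A second tier of IFT-B genes lay between 30.6 and 40.3 TPM. Ift81 and Ift74, the partners of the tubulin-binding module, averaged 38.8 ± 2.04 and 36.2 ± 2.19 TPM. Ift52, a core subunit, averaged 37.4 ± 1.05 TPM. The large peripheral subunit Ift172 averaged 33.4 ± 1.32 TPM, and the peripheral subunit Ift57 averaged 30.8 ± 0.23 TPM. The lowest were Ift88, whose hypomorphic allele gave the Oak Ridge polycystic kidney mouse, and the WD-repeat subunit Ift80. Ift88 had 11.6 TPM in replicate 2 and 12.6 TPM in replicate 1. Ift80 had 10.6 TPM in replicate 2 and 9.85 TPM in replicate 1. Over these 11 members the levels therefore spanned 11.7-fold by TPM, which is not the span of the whole complex. It depended on the measure: 14.5-fold over protein-coding transcripts alone and 8.60-fold by counts per kb of the longest protein-coding transcript.

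The retrograde group had a lower median, 19.8 TPM in replicate 2 and 17.98 TPM in replicate 1 (18.9 ± 1.27). Its exception was the small IFT-A subunit Ift43, with 64.1 TPM in replicate 2 and 65.9 TPM in replicate 1. The IFT-A core subunits Ift122 and Ift140 followed at 20.9 ± 2.40 and 20.6 ± 3.66 TPM, which overlapped. Dync2h1, the heavy chain of the dynein-2 motor, had 16.9 TPM in replicate 2 and 17.9 TPM in replicate 1. Wdr35 averaged 16.01 ± 0.28 TPM and Wdr19 averaged 11.3 ± 1.195 TPM; both are WD-repeat subunits of IFT-A. The log2 ratio of the IFT-B median over the retrograde median was 0.93 in replicate 2 and 1.03 in replicate 1.

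The BBSome group of 6 members was the most even of the groups with more than 2 members, spanning 2.50-fold by TPM. Its median was 17.3 TPM in replicate 2 and 15.3 TPM in replicate 1 (16.3 ± 1.39). Bbs4, a subunit of repeated helical motifs, averaged 18.4 ± 3.93 TPM, and Bbs5, which binds phosphoinositides, averaged 17.6 ± 1.93 TPM. Bbs2, Bbs7 and Bbs9, which form the core of the complex, averaged 18.01 ± 2.76, 15.3 ± 0.40 and 14.5 ± 0.16 TPM. Only Bbs1, the subunit that contacts Arl6, lay apart within the group, with 8.32 TPM in replicate 2 and 6.35 TPM in replicate 1. The evenness depended on the measure: over protein-coding transcripts alone the same 6 genes spanned 5.12-fold, and under M4 they spanned 5.25-fold. It also held for the members only and not for the whole complex, since the further BBSome subunits Bbip1 and Ttc8 averaged 94.8 and 27.6 TPM.

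The 3 genes that act on the BBSome were uneven. Arl6, the GTPase that recruits the BBSome to membranes, had 33.4 TPM in replicate 2 and 32.6 TPM in replicate 1. Bbs10, a chaperonin-like assembly factor, had 4.01 TPM in replicate 2 and 4.65 TPM in replicate 1. Bbs12, of the same kind, had 3.61 TPM in replicate 2 and 4.63 TPM in replicate 1. By TPM under M21 both assembly factors were below, and Arl6 above, each of the 6 BBSome members in both libraries. For Bbs1 this turned with the measure: under M4 it had 3.52 TPM in replicate 2 and 3.58 TPM in replicate 1, below both assembly factors in both libraries. On protein-coding transcripts alone Bbs1 was likewise below both.

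The 13 transition zone genes had a median of 12.8 TPM in replicate 2 and 12 TPM in replicate 1 (12.4 ± 0.59), and 8 of 13 reached 10 TPM in each library. The membrane protein Tmem216 led with 37.9 TPM in replicate 2 and 41.2 TPM in replicate 1. B9d2 and B9d1, small proteins with a B9 domain, averaged 27.7 ± 0.32 and 24.4 ± 0.19 TPM. Mks1, the third B9-domain protein, averaged 13.0 ± 0.21 TPM. Among the tectonics, Tctn2 had 18.4 TPM in replicate 2 and 16.2 TPM in replicate 1. Tctn3 averaged 8.94 ± 0.38 TPM and Tctn1 averaged 3.74 ± 0.16 TPM, so the 3 tectonics did not overlap. The membrane proteins Tmem67 and Tmem231 averaged 14.3 ± 0.29 and 12.4 ± 0.59 TPM.

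By TPM the larger proteins of the gate lay at or below the zone's median. Rpgrip1l, a transition zone organiser, averaged 11.9 ± 1.24 TPM, and Cc2d2a averaged 6.63 ± 1.29 TPM. Nphp4, of the nephronophthisis module, had 5.65 TPM in replicate 2 and 5.16 TPM in replicate 1. Cep290, which links the microtubules to the membrane, had 4.76 TPM in replicate 2 and 5.26 TPM in replicate 1. Nphp4 and Cep290 overlapped, and by TPM both lay below Cc2d2a. On protein-coding transcripts alone Nphp4 averaged 5.375 TPM and Cc2d2a 4.385 TPM, so their order turned with the measure. By that measure Rpgrip1l, at 11.735 TPM, lay above the zone's median of 7.555 TPM.

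Of the basal body genes, the kinase Ttbk2, which licenses the mother centriole to grow a cilium, averaged 10.9 ± 1.23 TPM, and Ofd1, a protein of the distal centriole, averaged 7.15 ± 0.49 TPM. In the membrane traffic group Inpp5e, a ciliary phosphoinositide phosphatase, had 25.8 TPM in replicate 2 and 23.2 TPM in replicate 1. Tulp3, the adaptor that brings receptors onto IFT-A, and Arl13b, a GTPase of the ciliary membrane, averaged 15.5 ± 0.79 and 15.2 ± 1.44 TPM. Gpr161 (ENSMUSG00000040836.15, chromosome 1), a ciliary receptor that restrains hedgehog signalling, was the lowest of all members at 2.35 TPM in replicate 2 and 2.46 TPM in replicate 1. That level rested on 345 counts in replicate 2 and 348 in replicate 1. Of the 44 neighbouring pairs in the order of all members, 29 overlapped between the libraries, so the order is resolved in steps rather than gene by gene.

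Set side by side, the 17 train genes had a median of 32.5 TPM in replicate 2 and 34.3 TPM in replicate 1. The log2 ratio of the train median over the transition zone median was 1.34 in replicate 2 and 1.52 in replicate 1 (1.43 ± 0.13, n = 2). Trains over BBSome gave 0.91 in replicate 2 and 1.16 in replicate 1 (1.04 ± 0.18). BBSome over transition zone gave 0.43 in replicate 2 and 0.35 in replicate 1 (0.39 ± 0.05). Genes of a complex are not replicates of it, so these ratios carry the spread of the libraries only and no test was made between groups. The order trains, BBSome, transition zone was the same in both libraries and with each measure of level tried, but the distances were not. With TPM summed over protein-coding transcripts only, trains over transition zone was 1.88, and with counts per kb of the longest protein-coding transcript it was 0.89.

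**Figure D2:**
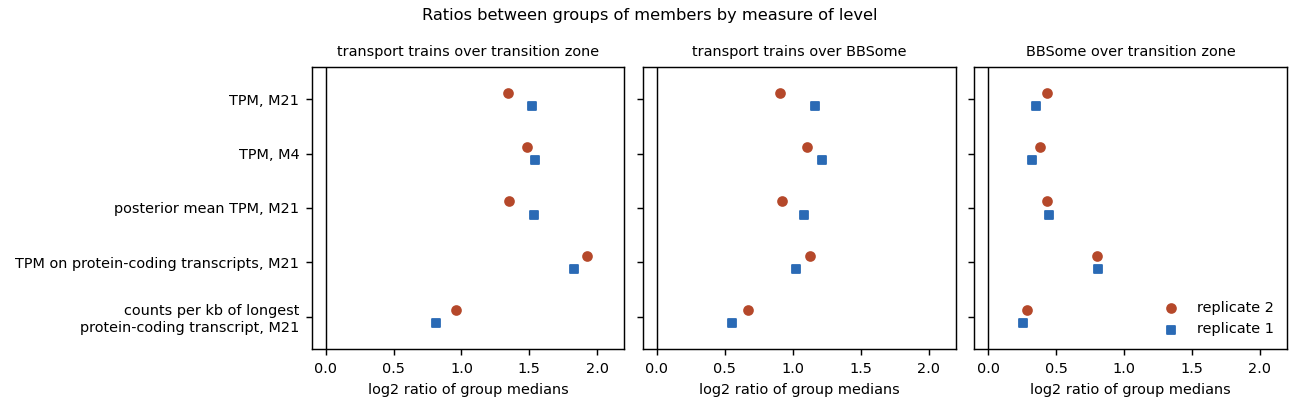
Log2 ratio of group median levels in replicate 2 (circles) and replicate 1 (squares) for 3 pairs of groups, by 5 measures of level. All points lie right of 0, and trains over transition zone runs between 0.82 and 1.93.

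Longer members had lower levels. Across the 45 genes the Spearman correlation of the longest protein-coding transcript with mean TPM was -0.53, and across 13388 expressed protein-coding genes it was -0.18. The points share both libraries, and length itself enters the TPM, so the value is a description only. For Tctn2, which has no coding transcript, its longest transcript was used.

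Between the libraries no member moved past 1.5-fold by estimated counts after TMM scaling, 0 of 45, against 11.2% of the 20125 genes with at least 10 counts in a library. Much of that background was in genes with few reads: among 13269 genes with at least 100 counts in both libraries, as every member has, the share was 0.965%. The members' log2 ratios of replicate 2 over replicate 1 ran between -0.39 and 0.19 with a median of -0.004, beside -0.001 over all genes kept; 21 of 45 were positive, against 49.8% of all genes kept. Past a log2 ratio of 0.32 in either direction there was 1 member, against 23.3% of all genes kept and 6.32% of those with at least 100 counts in both. That member was Bbs12, with 180 counts in replicate 2 and 223 in replicate 1 (log2 ratio -0.39, 95% exact binomial interval -0.69 to -0.11). Such intervals cover counting error only, since no spread between replicates enters them. The reads carry no molecular identifiers, so copies of the same molecule cannot be told apart. With 1 library against 1 there was no replicate check and no p-value is given.

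The counting interval left out 0 in 9 of 45 members, against 30.6% of all genes kept. In 5 of them replicate 2 was higher, against 15.6%. Bbs4 had 984 estimated counts in replicate 2 and 809 in replicate 1 (log2 ratio 0.19), and Wdr19 had 1035 in replicate 2 and 878 in replicate 1 (log2 ratio 0.15). The others were Ift74, Ift122 and Ift81, with log2 ratios between 0.11 and 0.12. In 4 replicate 2 was lower, against 14.9%: Bbs12, Bbs10 at -0.27, Tmem216 at -0.16 and Ift27 at -0.12. The higher sensory ganglion markers and lower skeletal muscle markers of replicate 2 moved between the same libraries, and their part in these ratios was not tested.

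TPM and counts parted in a few members. In 4 of 45 the log2 ratio of TPM and that of counts were apart by more than 0.32, against 2.4% of expressed protein-coding genes. The largest gap was in Bbs1, which had 425 counts in replicate 2 and 424 in replicate 1, yet 8.32 TPM in replicate 2 and 6.35 TPM in replicate 1. Its short transcript Bbs1-204, of 643 bases, had been given 35.1 counts in replicate 2 and 0 in replicate 1, which was 35.8% and 0% of the gene's TPM. Cc2d2a went the other way, with 548 counts in replicate 2 and 517 in replicate 1, but 5.71 TPM in replicate 2 and 7.54 TPM in replicate 1. There the retained-intron transcript Cc2d2a-204, of 1194 bases, took 14.6% of the TPM in replicate 2 and 42.6% in replicate 1. The other 2 were Bbs2 and Bbs5, both higher in replicate 2 by TPM.

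**Figure D3:**
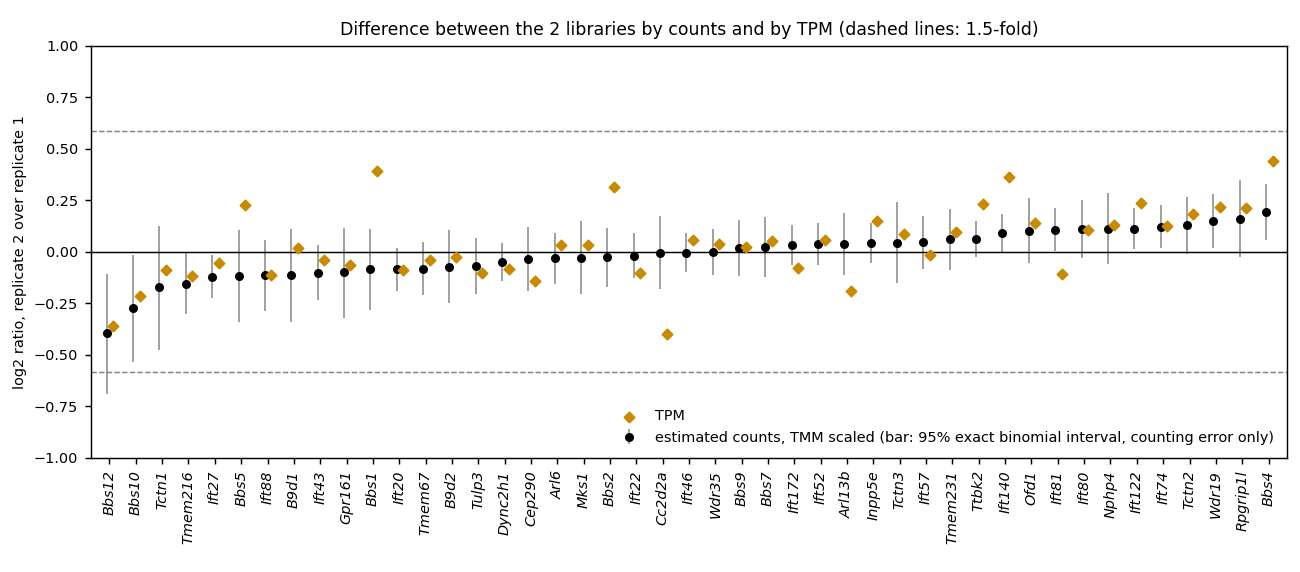
Log2 ratio of replicate 2 over replicate 1 for each member, by TMM-scaled estimated counts (black points, with 95% exact binomial intervals for counting error) and by TPM (diamonds), ordered by the count ratio; dashed lines mark 1.5-fold. No member passes the dashed lines by either measure, and Bbs1, Bbs2, Bbs5 and Cc2d2a show the widest gaps between the measures.

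A protein-coding transcript held the largest share of TPM in 43 of 45 members, against 91% of expressed protein-coding genes. The exceptions were 2 tectonics. Tctn1 was led by Tctn1-203, annotated as a target of nonsense-mediated decay, at 50.4% of its TPM in replicate 2 and 28.0% in replicate 1. The retained-intron transcript Tctn1-202 took 21.8% in replicate 2 and 32.6% in replicate 1, where it was ahead. Tctn1 rested on 179 estimated counts in replicate 2 and 190 in replicate 1, the fewest of any member.

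Tctn2 (ENSMUSG00000029386.15, chromosome 5, bases 124598749 to 124627738 of mm10) has no transcript with a coding annotation in M21; the gene is listed there as a processed transcript. Its transcripts Tctn2-201 and Tctn2-207, of 2732 and 2733 bases, differ by 1 base at position 124624335, inside the fifteenth exon of Tctn2-207, where Tctn2-201 is annotated with a gap of 1 base. The stretch around it is shown because these transcripts differ nowhere else, with the base that only Tctn2-207 has in capitals, on the plus strand. Reads over that base were not examined.
Tctn2-201: ccgaagcccctgatggtgccgacctgcc
Tctn2-207: ccgaagcccctgatAggtgccgacctgcc
The estimate gave Tctn2-207 742 counts in replicate 2 and 644 in replicate 1, and Tctn2-201 none in either. The posterior mean divided them: Tctn2-207 had 481 ± 197 counts in replicate 2 and 541 ± 75.1 in replicate 1 (posterior SD). Tctn2-201 had 228 ± 189 counts in replicate 2 and 84.1 ± 73.2 in replicate 1. The gene's own total, 922 counts in replicate 2 and 793 in replicate 1, had a posterior SD of 0 in both.

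Coding transcripts held a median of 84.4% of the members' TPM, beside 91.5% over expressed protein-coding genes. Under 50% was found in 4 of 45 members, against 10.8% of those genes: Tctn2 with none, Tctn1 with 14.4% ± 3.92, Bbs1 with 43.6% ± 5.81 and Ift172 with 45.4% ± 1.95. In Ift172 the rest was spread over 7 retained-intron transcripts, of which the 742-base Ift172-205 took 14.6% of TPM in replicate 2 and 16.7% in replicate 1, on 3.65% and 4.63% of the gene's counts. At the other end, 17 of 45 members had 90% or more of their TPM on coding transcripts, a level that the median of expressed protein-coding genes, 91.5%, also exceeded. Of the 17, Arl6, B9d2, Bbs12, Gpr161 and Ofd1 had all of it.

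**Figure D4:**
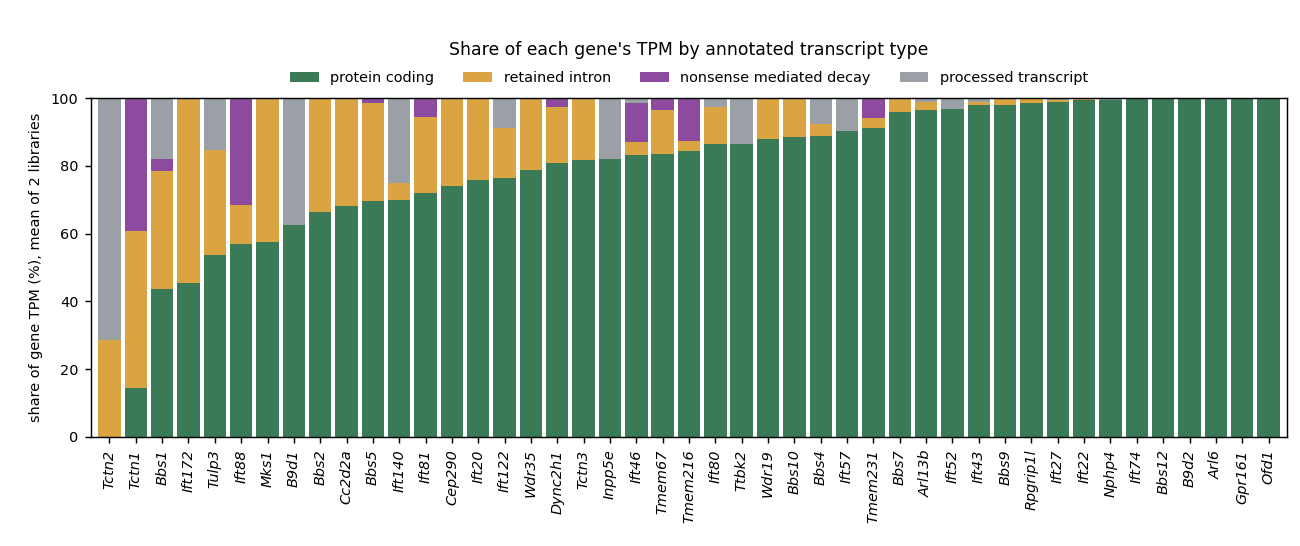
Share of each member's TPM (percent, mean of the 2 libraries) on transcripts annotated as protein coding, retained intron, targets of nonsense-mediated decay or processed transcripts, ordered by the coding share. Tctn2 has no coding share, Tctn1 has 14.4%, and Bbs1 and Ift172 lie below 50%.

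An annotation of protein coding did not mean a full-length message. Rpgrip1l was led by Rpgrip1l-205, a coding entry of only 278 bases in 2 exons, with 73.8% of TPM in replicate 2 and 71.9% in replicate 1. It carried 36.5 counts in replicate 2 and 29.7 in replicate 1, which was 6.93% and 6.70% of the gene's counts, while the 7009-base Rpgrip1l-201 carried 473 and 400. Of the 278 bases, 80.9% lie in exons of Rpgrip1l-201, so the short and long entries share most of that sequence. Dync2h1 was led by Dync2h1-202, of 2892 bases, at 45.8% of TPM in replicate 2 and 46.7% in replicate 1. The 14264-base Dync2h1-204 took 14.9% of TPM in replicate 2 and 15.1% in replicate 1 but the larger share of counts, 774 against 469 for Dync2h1-202 in replicate 2 and 801 against 490 in replicate 1.

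The top of the order was touched too. In Ift46 the 229-base Ift46-209 held 35.8% of TPM in replicate 2 and 30.7% in replicate 1, on 6.42% and 5.42% of the gene's counts, beside 66.6% and 65.9% of counts on the 1317-base Ift46-202. By counts per kb of its longest protein-coding transcript, which has 4169 bases, Ift46 ranked 10 of 45, and Ift27, Ift20 and Ift43 ranked 1, 2 and 3. With the M4 gene tables Ift46 ranked 1 again. In Tulp3 a 3623-base entry with a single exon, Tulp3-206, which shares no base with exons of Tulp3-201, took 28.6% of TPM in replicate 2 and 19.3% in replicate 1. The leading transcript differed between the libraries in 5 of 45 members: Arl13b, Bbs1, Cc2d2a, Tctn1 and Ttbk2. The same share over all genes was not computed.

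The authors' second deposited quantification, against GENCODE M4, gave some members other effective lengths and some other counts. In 9 of 45 members the M4 and M21 mean levels were apart by more than 0.32 on the log2 scale, against 11.8% of expressed protein-coding genes. Ift172 had 16.2 TPM in replicate 2 and 15.4 TPM in replicate 1 under M4, which lists 1 transcript for it, against 32.5 and 34.3 TPM under M21, which lists 11. Its counts hardly differed, 1773 in replicate 2 and 1627 in replicate 1 under M4, against 1814 and 1668 under M21, while its effective length was 5308 bases under M4, against 2578 and 2319 under M21. Bbs1, likewise with 1 transcript in M4, averaged 3.55 TPM there and 7.34 TPM under M21, and Rpgrip1l averaged 7.07 TPM under M4 and 11.9 TPM under M21. Cep290, Arl13b, Wdr19 and Ift22 were also lower under M4, and Ift57 and Cc2d2a were higher, by 0.43 and 0.42 on the log2 scale. In Ift22 and Wdr19 the counts fell as well. Ift22 had 1017 counts in replicate 2 and 1030 in replicate 1 under M4, against 1343 and 1279 under M21. Wdr19 had 755 and 676 under M4, against 1035 and 878 under M21.

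The split of reads between genes left little uncertainty in the members' counts. The deposited posterior SD of the gene count was 0 in both libraries in 35 of 45 members. It reached at most 3.205% of the count in the others. The SD does not give the number of reads shared with other genes, which was not computed. How many of all genes had an SD of 0 was not computed. No step that keeps strand is given in the labels, so where a member's exons overlap a gene on the opposite strand its count may hold reads of that gene. The widest such overlap was in Inpp5e, with 20.3% of its exon bases shared with Pmpca, a mitochondrial peptidase gene at 89.2 TPM in replicate 2 and 90.4 TPM in replicate 1. Tctn1 shared 19.0% of its exon bases with Hvcn1, a proton channel gene at 3.85 TPM in replicate 2 and 3.56 TPM in replicate 1. On the same strand Ttbk2 shared 29.9% with Cdan1, a gene at 7.68 TPM in replicate 2 and 5.87 TPM in replicate 1. How far the overlaps shift the levels of Inpp5e, Tctn1 and Ttbk2 was not tested, and the share of exon bases does not measure it. The posterior SDs of these 3 genes were 14.65, 5.75 and 9.62 counts in replicate 2 and 13.16, 5.98 and 6.89 in replicate 1.

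By annotated gene starts, a protein-coding gene began head to head within 1000 bases of 12 of the 45 members, on the opposite strand, against 15.4% of expressed protein-coding genes. In 11 of the 12 a transcript with at least 10% of the member's TPM also started within that distance. The exception was Ift46, whose annotated gene start belongs to a transcript with 0 counts in both libraries and whose leading transcript Ift46-202 starts 8532 bases away. The partners of the trains were Tnfaip1 for Ift20, Arcn1 for Ift46, Smc4 for Ift80, Mbd4 for Ift122, Cramp1l for Ift140 and Dcun1d5 for Dync2h1. Ift20 and Tnfaip1 start 29 bases apart, and Tnfaip1 had 45.8 TPM in replicate 2 and 41.9 TPM in replicate 1. Rpgrip1l-201 and Fto, an RNA demethylase gene, start 263 bases apart, and Fto had 85.9 TPM in replicate 2 and 79.6 TPM in replicate 1. Ift80 and Smc4, a condensin subunit, start 168 bases apart by gene and 195 by the leading transcript of Ift80, with Smc4 at 98.6 TPM in replicate 2 and 97.5 TPM in replicate 1. The other pairs were Bbs12 with Cetn4, Cep290 with Tmtc3, Tctn3 with Entpd1, Tmem67 with Rbm12b2 and Ofd1 with Trappc2.

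Other genes of the same machinery, listed by role, were also detected in most cases. Of 16 further transport genes 14 reached 1 TPM in each library. The kinesin-2 motor genes Kif3a and Kifap3 had 114 and 59.0 TPM in replicate 2 and 123 and 54.4 TPM in replicate 1. The accessory motor Kif17 had 1.34 TPM in replicate 2 and 0.87 TPM in replicate 1. The IFT-B subunit Hspb11, also called IFT25, averaged 34.5 ± 1.99 TPM and the dynein-2 chain Wdr34 averaged 30.96 ± 2.04 TPM. Ttc30a1 and Ttc30a2 averaged 6.60 and 0.78 TPM; they and Ttc30b are near-identical paralogs, so the split of reads between them is uncertain.

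All 5 further BBS genes were at 1 TPM or more, led by the smallest BBSome subunit Bbip1 at 95.7 TPM in replicate 2 and 94.0 TPM in replicate 1. Ttc8, the remaining BBSome subunit, averaged 27.6 ± 0.84 TPM, and the chaperonin-like Mkks averaged 10.6 ± 0.79 TPM. Bbip1 and Ttc8 both lay above all 6 BBSome members in both libraries. The 13 further transition zone and inversin genes were all at 1 TPM or more, between Anks6 at 4.19 ± 0.01 TPM and Cspp1 at 55.0 ± 2.10 TPM, with a list median of 24.3 ± 2.69 TPM. The 11 further basal body and appendage genes all exceeded 10 TPM, led by Odf2 at 71.7 ± 7.64 TPM, Cby1 at 57.4 ± 1.51 TPM and Fbf1 at 51.1 ± 2.37 TPM. The further transport genes had a median of 12.7 ± 0.12 TPM, against 27.6 ± 0.84 TPM for the further BBS genes, so among the further lists transport was below both BBS and transition zone genes. The order trains, BBSome, transition zone thus held for the members chosen and not for the further genes of the same machinery.

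Of 15 further membrane and GTPase genes 13 were at 1 TPM or more. Arl2bp and Arl3, of the lipid-protein delivery route, averaged 181 ± 6.91 and 151 ± 3.09 TPM. Smo, the hedgehog transducer that enters the cilium, had 33.0 TPM in replicate 2 and 28.6 TPM in replicate 1. The receptors Mchr1 and Sstr3, used as markers of neuronal cilia in the adult brain, were below 1 TPM in both libraries. Mchr1 had 45 counts (0.99 TPM) in replicate 2 and 37 counts (0.85 TPM) in replicate 1, and Sstr3 had 13 counts (0.14 TPM) in replicate 2 and 17 counts (0.19 TPM) in replicate 1. Adcy3, the next lowest gene of this list, was detected, with 598 counts (6.51 TPM) in replicate 2 and 560 counts (5.78 TPM) in replicate 1.

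Genes of motile cilia had a list median of 1.21 TPM in replicate 2 and 0.91 TPM in replicate 1. Of 17 listed, 8 reached 1 TPM in each library, against 60.9% of all protein-coding genes. None reached 10 TPM in each, against 41.7% of all protein-coding genes. Foxj1, the regulator of motile cilia that is also active in the floor plate, had 5.76 TPM in replicate 2 and 5.56 TPM in replicate 1. Ccdc40, a ruler protein of motile axonemes, was the highest at 14.2 TPM in replicate 2 and 9.00 TPM in replicate 1. The regulators of multiciliated cells were at or near 0: Mcidas had 3 counts in replicate 2 and 2 in replicate 1, and Gmnc had 2 in replicate 2 and none in replicate 1. Among other genes of the list, Ccdc39 had 6.63 TPM in replicate 2 and 5.69 TPM in replicate 1. Tekt1 had 3.56 TPM in replicate 2 and 4.12 TPM in replicate 1, and Spag6l averaged 3.045 TPM. The axonemal genes Dnah5, Rsph4a and Hydin were at 0.13 TPM or less in both libraries.

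**Figure D5:**
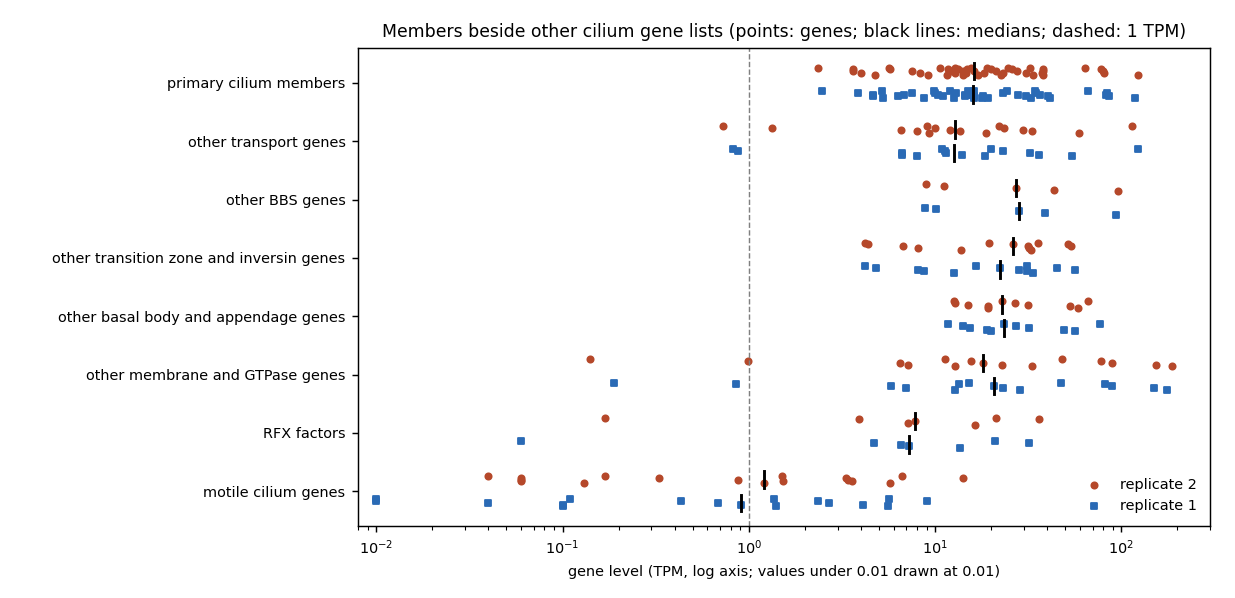
TPM (log axis) of the 45 members and of 7 further gene lists in replicate 2 (circles, upper row of each list) and replicate 1 (squares, lower row); black lines are list medians and the dashed line marks 1 TPM. Motile cilium genes have a median near 1 TPM in both libraries, while the members' medians are 16.2 TPM in replicate 2 and 16.01 TPM in replicate 1.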

How the data were processed

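Polyadenylated RNA was sequenced from 2 pools of E12.5 neural tube. The notes deposited beside each library's tables give transcriptome alignments on mm10, quantified against GENCODE M21 and separately against M4. No aligner or quantifier is named there or in the labels (not given in the sources used here); the header names match those of RSEM. The deposited estimated count shares reads among the features they match. The deposited TPM divides that by effective length, so short transcripts weigh more per read. Per the file headers, the tables also hold the percent of a gene's TPM on each transcript, posterior means of TPM and count, and a posterior SD.

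Genes were named from GENCODE M21, whose build matches. Levels are TPM as deposited, and group values are medians in each library. For the ratio between libraries, estimated counts were rounded, scaled with TMM factors (R 4.3.3, edgeR 4.0.16) and kept at 10 or more in either library, with a prior count of 2; this was tested on simulated data. DESeq2 1.42.0 gave size factors as an alternative. Totals were 35461403 (replicate 2) and 33529531 (replicate 1); 2.89% and 2.99% of these fell on ERCC spike-ins, which stay out of library sizes. A count of 0 allows up to 3 counts, 0.138 and 0.143 TPM at 1 kb; intervals and limits cover counting error only. Python 3.11.15, pandas 2.3.3, numpy 2.4.6, scipy 1.17.1 and matplotlib 3.10.9 were used.

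Named are all 45 members, up to the 4 highest and 3 lowest of each other list, neighbouring genes and leading transcripts; other genes were named after their values were seen. The members and lists were chosen with earlier results of these data known. The pools are labelled as biological replicates and share 1 strain label; whether they were extracted and sequenced together is not stated, so the spread between them may be partly technical.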

Additional observations from a re-analysis of the deposited data

How the results depend on the processing

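Of 88 alternative values for 14 results, 70 were labelled unchanged, and no difference past a threshold changed direction. Unchanged meant within the SD of the libraries for group medians and their ratios, and within 1.5 times for counts. Leaving out a replicate could not move a group median or ratio by this rule. Each library's value always lies within that SD of the mean, so these alternatives are no check. For the members' median log2 ratio the limit was 0.139, taken from the counting intervals, which cover counting error only. The members' median log2 ratio between the libraries lay near 0 and changed sign: -0.004 with TMM, 0.05 with spike-in scaling and 0.03 with TPM + 1. The 45 members all reached 1 TPM under M4 and in either library alone. No member passed 1.5-fold with DESeq2 size factors, spike-in scaling, TPM + 1, either count filter or M4; 1 passed with the lower log2 threshold of 0.32. Under M4 the median was 40.2 TPM for IFT-B and 13.2 TPM for membrane traffic. The geometric mean in place of the median gave 40.1 TPM for IFT-B, 21.1 for IFT-A and dynein-2, 14.5 for the BBSome, 8.37 for the BBS chaperonins and Arl6, 11.7 for the transition zone and 10.8 for membrane traffic. With members at 5 TPM or more only, the medians were 33.0 TPM for the BBS chaperonins and Arl6, where Arl6 alone is left, and 13.0 for the transition zone. The log2 ratio of BBSome over transition zone was 0.31 with the geometric mean and 0.32 at 5 TPM or more. Measures of level chosen after seeing the data moved the ratios most. On protein-coding transcripts only, trains over transition zone was 1.88 and BBSome over transition zone 0.80. By counts per kb of the longest protein-coding transcript, trains over transition zone was 0.89, trains over BBSome 0.61 and BBSome over transition zone 0.27. The cause of these shifts was not tested beyond the lengths and transcript shares given in the results. No paired analysis was possible because there is 1 group.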
